A study of Mus musculus with 5 samples.

Results

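The 7 genes described here encode enzymes of the main trunk of glycolysis: Gpi1 (glucose-6-phosphate isomerase), Aldoa (aldolase A), Tpi1 (triose phosphate isomerase), Gapdh (glyceraldehyde-3-phosphate dehydrogenase), Pgk1 (phosphoglycerate kinase), Eno1 (enolase) and Pkm (pyruvate kinase). They were taken by name and not by a cutoff on a measured value, but with earlier results of these data known. Of the 7, 6 belong to the 6543 genes that could be matched by symbol across all 5 libraries, and Gapdh could be read in the non-pregnant library only.

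Glycolysis splits glucose into pyruvate in the cytosol, and its later steps yield ATP and NADH. In pancreatic beta cells this flux is the first part of glucose sensing: glucose enters through the transporter Slc2a2 and is phosphorylated by glucokinase, and the pyruvate is then mostly burned in mitochondria, where the ATP that triggers insulin release is made. The enzymes below the phosphofructokinase step are expressed in nearly every cell, and several are known targets of the hypoxia-inducible factors.

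The study asked how islet cell types adapt to pregnancy and to the time after birth. Islets of C57BL/6 mice were dissociated, and their cells were captured 1 by 1 in droplets by inDrop, a method in which every polyadenylated RNA molecule receives its own tag, a unique molecular identifier (UMI). The design had 2 libraries of postpartum mice (postpartum 1 and 2), 2 of pregnant mice (pregnant 1 and 2) and 1 of non-pregnant mice. The labels give neither the day of pregnancy or lactation nor the number of animals pooled. P-values can therefore reflect no more than the spread between libraries, which may be technical. In the main test of insulin-containing cells this spread was taken from a trend over genes and not from each gene.

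The 5 libraries held 4687 cells. Cells were put in the class of the hormone with the most UMIs: 3872 in the insulin class (Ins1 plus Ins2), 560 in the glucagon class, 122 in the somatostatin class, 106 in the pancreatic polypeptide class and 27 in none. Postpartum 1 and 2 had 134957 and 710529 UMIs, pregnant 1 and 2 had 1136444 and 14933, and the non-pregnant library had 2561319. The non-pregnant library had 27309 detected features of 40930 given, and pregnant 1 and the postpartum libraries had 6070 to 6684 of 6695. Pregnant 2 stood apart, with 164 cells, a median of 81 UMIs per cell and 1193 detected features of 6695. Its 6778 non-hormone UMIs of the insulin class held 16 UMIs of the 6 enzymes, in 2 cells. Of the 9 beta-cell markers measured beside the insulin genes and Iapp, 9 were detected in the insulin class of each of the other libraries and 5 in pregnant 2, where Slc2a2, Nkx6-1, Pdx1 and Slc30a8 were at 0. Each result is therefore given with and without pregnant 2. The non-pregnant library has no replicate and differs from the others in scale, feature list and depth, so the non-pregnant state cannot be told apart from these. Cells are numbered in the files, so barcodes shared between libraries could not be counted.

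The genes lie on 5 chromosomes of the GRCm38 build. Gpi1 and Aldoa are on chromosome 7 (34201330 to 34230336 and 126795234 to 126800751, both on the minus strand). Tpi1 and Gapdh are on chromosome 6 (124810586 to 124814296 and 125161715 to 125166467, both minus). Pgk1 is on X (106187100 to 106203699, plus), Eno1 on 4 (150236721 to 150248879, plus) and Pkm on 9 (59656368 to 59679375, plus). The last 200 bases of the transcript, the part that a poly(A)-primed library reads, had a close copy (at least 95% identity) in 4 other annotated genes for Gapdh and in 1, Eno1b, for Eno1. Counts of these 2 genes are therefore uncertain, while the other 5 genes had no such copy.

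The stretches of 250 bases before the annotated starts were read from RefSeq (GRCm38.p6) for all 7 genes, which have 12 such starts. The letters ACGTG, the core of the element bound by hypoxia-inducible factors and also part of other sites, were searched on both strands. They were found in 4 of the 12 windows, which belong to 3 of the 7 genes (Pgk1, Aldoa and Pkm). Of 32851 mouse promoter windows of the same length 16.6% hold them, a rate per window and not per gene. The windows of Aldoa starts 2 and 3 overlap and are counted separately. The windows of Pgk1 (2 matches) and Aldoa (1 match) are shown because of calls made when pregnant 2 is left out. Both genes were then called lower in postpartum than in non-pregnant insulin-class cells. Pgk1 passed the limma filter only through the non-pregnant library, so its limma call is not independent of the filter. Aldoa was called only by edgeR, an alternative chosen after the data were seen, and not by limma, the main test. Capitals mark ACGTG or its reverse complement CACGT, and both sequences run 5′ to 3′ on the strand of the gene. A match is a description of the letters and not evidence of binding.
Pgk1 promoter, chrX:106186850-106187099, plus strand: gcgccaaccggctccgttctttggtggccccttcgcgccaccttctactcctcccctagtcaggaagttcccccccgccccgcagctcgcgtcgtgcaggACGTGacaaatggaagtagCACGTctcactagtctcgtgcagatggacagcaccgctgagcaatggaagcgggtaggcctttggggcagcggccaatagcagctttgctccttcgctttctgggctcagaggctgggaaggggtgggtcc
Aldoa promoter at the annotated start 2, chr7:126799255-126799504, minus strand: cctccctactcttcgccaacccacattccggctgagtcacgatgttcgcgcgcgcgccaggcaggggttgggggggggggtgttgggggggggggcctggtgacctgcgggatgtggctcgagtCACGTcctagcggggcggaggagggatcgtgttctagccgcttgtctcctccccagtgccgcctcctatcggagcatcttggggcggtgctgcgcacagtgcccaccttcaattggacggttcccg
The Aldoa window lies downstream of another annotated start of the gene, whose own window has no match. The letters GGGCGG, the core of sites for Sp1-type factors, were found in 8 of the 12 windows (6 genes), against 32.7% of all windows, and CCAAT in 6 of the 12 (4 genes), against 33.8%. Overlapping windows are counted separately here too, so these are not counts of separate sites.

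In insulin-class cells of both postpartum libraries all 6 enzymes stood lower than in pregnant 1 or the non-pregnant library, an order that 31.2% of the 6536 shared genes with a UMI had too. Summed over the 6, postpartum 1 had 846 (582 to 1187) and postpartum 2 had 945 (813 to 1093) UMIs per 1000000 non-hormone UMIs, against 1926 (1809 to 2049) in pregnant 1 and 2449 (2357 to 2544) in the non-pregnant library. Levels here are UMIs pooled over the cells of a class per 1000000 non-hormone UMIs (CPM), not divided by gene length. The ranges are exact Clopper-Pearson 95% intervals, which cover counting error only. The postpartum sums were 0.439 (0.301 to 0.621) and 0.491 (0.417 to 0.575) times that of pregnant 1, and 0.345 (0.237 to 0.486) and 0.386 (0.330 to 0.449) times that of the non-pregnant library. The postpartum libraries differed from each other by less than counting error, with a ratio of postpartum 1 to postpartum 2 of 0.894 (0.598 to 1.30). Pregnant 2 had 2361 (1350 to 3831) CPM from its 16 UMIs.

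**Figure D1:**
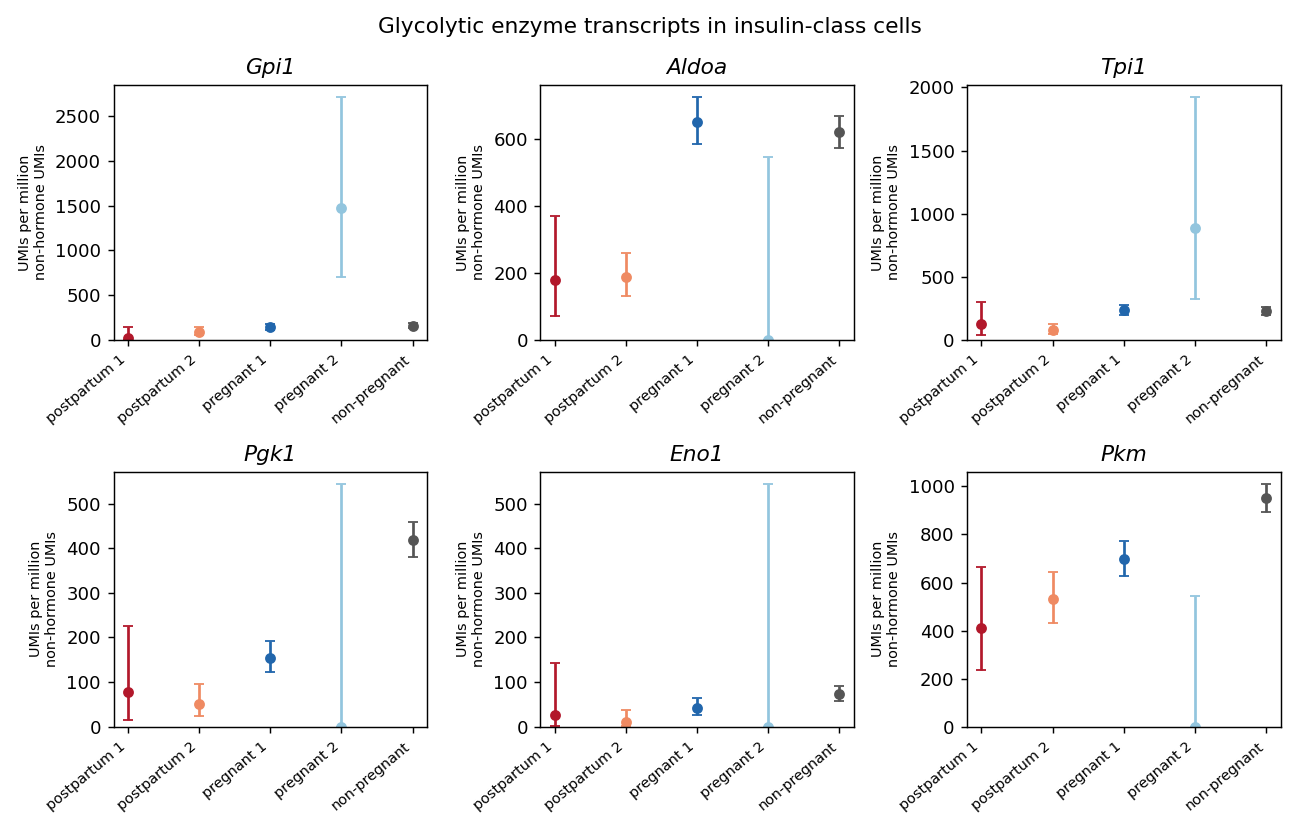
Level of each of the 6 enzymes in insulin-class cells of each library, in UMIs per 1000000 non-hormone UMIs; points are pooled levels and bars exact 95% intervals from counting error. Both postpartum libraries lie below pregnant 1 and the non-pregnant library for each enzyme, while pregnant 2 is at 0 for 4 enzymes and high for Gpi1 and Tpi1, which rest on 10 and 6 UMIs.

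Gpi1 turns glucose-6-phosphate into fructose-6-phosphate. It was at 25.6 CPM (1 UMI) in postpartum 1 and 88.3 (17 UMIs) in postpartum 2, at 146 (76 UMIs) in pregnant 1 and 1475 (10 UMIs) in pregnant 2, and at 160 (172 UMIs) in the non-pregnant library. The 10 UMIs of pregnant 2 came from a single cell. Both postpartum libraries were the lowest, but the ratio of postpartum 2 to pregnant 1, 0.605, had an interval of 0.335 to 1.03.

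Aldoa cleaves fructose-1,6-bisphosphate into 2 trioses and is the aldolase of muscle and most other tissues. It was at 179 CPM (7 UMIs) in postpartum 1 and 187 (36 UMIs) in postpartum 2, at 651 (339 UMIs) in pregnant 1 and 0 in pregnant 2, and at 619 (667 UMIs) in the non-pregnant library. The postpartum levels were 0.276 (0.110 to 0.574) and 0.287 (0.198 to 0.406) times that of pregnant 1, whereas pregnant 1 was at 1.05 (0.920 to 1.20) times the non-pregnant level. The 0 in pregnant 2 allows up to 443 CPM (3 counts of its total).

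Tpi1 interconverts those trioses. It was at 128 CPM (5 UMIs) in postpartum 1 and 77.9 (15 UMIs) in postpartum 2, at 234 (122 UMIs) in pregnant 1 and 885 (6 UMIs, again in a single cell) in pregnant 2, and at 228 (246 UMIs) in the non-pregnant library. Postpartum 2 was at 0.333 (0.181 to 0.570) times pregnant 1, while postpartum 1, at 0.547 times, had an interval of 0.174 to 1.31 that reached past 1. As with Aldoa, pregnant 1 and the non-pregnant library differed by less than counting error, with a ratio of 1.03 (0.819 to 1.28).

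Gapdh, which makes NADH and 1,3-bisphosphoglycerate, had 134 UMIs in 115 non-pregnant cells. Its level there was 105 CPM (86.5 to 126) in the insulin class, 99.2 (51.2 to 173) in the glucagon class and 130 (52.3 to 268) in the somatostatin class, and 41.3 (5.01 to 149) in the pancreatic polypeptide class from 2 UMIs. These intervals overlap.

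Pgk1 makes the first ATP of the pathway. It was at 76.9 CPM (3 UMIs) in postpartum 1 and 52.0 (10 UMIs) in postpartum 2, at 154 (80 UMIs) in pregnant 1 and 0 in pregnant 2, and at 419 (451 UMIs) in the non-pregnant library. It was the enzyme for which pregnant 1 also stood below the non-pregnant library by the widest margin, at 0.367 (0.286 to 0.466) times. The postpartum ratios to the non-pregnant library were 0.184 (0.0377 to 0.540) and 0.124 (0.0591 to 0.230).

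Eno1, which makes phosphoenolpyruvate, was the scarcest of the 6, with 25.6 CPM (1 UMI) in postpartum 1 and 10.4 (2 UMIs) in postpartum 2, 42.2 (22 UMIs) in pregnant 1, 0 for pregnant 2 and 72.4 (78 UMIs) in the non-pregnant library. Pregnant 1 was at 0.583 (0.346 to 0.946) times the non-pregnant level. The ratios of postpartum 1 and 2 to pregnant 1 rest on so few UMIs that their intervals, 0.0147 to 3.75 and 0.0280 to 1.00, span or touch 1.

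Pkm makes pyruvate and the last ATP, and it had the most UMIs of the 6 in the insulin class of every library but pregnant 2. It was at 410 CPM (16 UMIs) in postpartum 1 and 530 (102 UMIs) in postpartum 2, at 699 (364 UMIs) in pregnant 1 and 0 in pregnant 2, and at 951 (1024 UMIs) in the non-pregnant library. Of the 6 enzymes its postpartum ratios to pregnant 1 were among the closest to 1, at 0.586 (0.332 to 0.965) and 0.758 (0.603 to 0.947). The ratio of pregnant 1 to the non-pregnant library was 0.735 (0.651 to 0.829).

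The share of each enzyme among the 6 also varied between libraries. Pkm took 48.5% (30.8 to 66.5) and 56.0% (48.5 to 63.4) of their UMIs in insulin-class cells of postpartum 1 and 2, against 36.3% (33.3 to 39.4) in pregnant 1 and 38.8% (37.0 to 40.7) in the non-pregnant library. Aldoa took 21.2% (8.98 to 38.9) and 19.8% (14.3 to 26.3) in postpartum 1 and 2, against 33.8% (30.9 to 36.8) in pregnant 1 and 25.3% (23.6 to 27.0) in the non-pregnant library. The interval of postpartum 2 did not overlap that of pregnant 1 for either enzyme, while that of postpartum 1, with 33 UMIs in all, did. Pgk1 took 9.09% and 5.49% in postpartum 1 and 2 and 7.98% (6.37 to 9.83) in pregnant 1, against 17.1% (15.7 to 18.6) in the non-pregnant library. These are shares of counts within a library, compared by their intervals and not tested across libraries.

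With all 5 libraries the limma test across all genes called no enzyme in insulin-class cells. Of the 6 enzymes 5 passed its filter (a mean of at least 100 CPM over libraries), and Eno1 did not. Gpi1 passed through pregnant 2 alone, and Pgk1 through the non-pregnant library alone. In postpartum against pregnant cells 0 of the 5 were called (0.136% of 2204 genes), with 1, Gpi1, at an unadjusted p under 0.05 (log2 difference -2.30 ± 1.16 SE, adjusted p = 0.845), and 0 of 6 by edgeR or DESeq2. In pregnant against non-pregnant cells 0 of 5 were called (0.136%), and in postpartum against non-pregnant cells 0 of 5 (0.318%), with 0 at an unadjusted p under 0.05 and 0 of 6 by edgeR or DESeq2 in either. Over these 3 comparisons the median log2 difference of the 5 enzymes was -0.035, -1.40 and -0.83, against 0.55, -0.58 and -0.013 over all genes tested. The 3 comparisons share libraries, and standard errors of the enzymes ran from 0.92 to 1.54.

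Without pregnant 2 the errors were smaller, and Pgk1 passed the test in postpartum against non-pregnant insulin-class cells. The differences are on the scale of log2(mean CPM over cells + 100), which understates changes of scarce genes. Pregnant 1 and the non-pregnant library each stood alone in their group. The error thus came from postpartum 1 against postpartum 2, pooled over genes. Pgk1 passed the filter only through the non-pregnant library, where its mean over cells was 377 CPM. It was at 53.4 and 70.2 CPM in postpartum 1 and 2 and at 174 CPM in pregnant 1. Its limma call is therefore not independent of the filter. Pgk1 fell by 1.56 ± 0.46 (SE, limma adjusted p = 0.0147), and it was the 1 enzyme called of the 4 that passed the filter (6.08% of 2449 genes called). Aldoa stood at -1.13 ± 0.47 (adjusted p = 0.171), Pkm at -0.73 ± 0.46 (adjusted p = 0.538) and Tpi1 at -0.71 ± 0.45 (adjusted p = 0.564) in the same limma fit. edgeR on the recovered UMIs of the same libraries, an alternative chosen after the data were seen, called 2 of 6 enzymes (5.46% of 6534 genes): Pgk1 at -2.71 (adjusted p = 0.000405) and Aldoa at -1.61 (adjusted p = 0.0391). The Pgk1 difference was below 0 with all 5 libraries too, but was called there by neither limma nor edgeR, and 1 library stands for the non-pregnant state. Over the alternatives run its adjusted p ranged from 0.000405 to 1.00, and that of Aldoa from 0.0391 to 1.00.

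In postpartum against pregnant insulin-class cells, without pregnant 2, no enzyme was called by limma (0 of 4, 2.57% of 2449 genes; 1, Aldoa, at an unadjusted p under 0.05) or by edgeR (0 of 6, 1.68%; 3 at an unadjusted p under 0.05). Aldoa stood closest, at -1.18 ± 0.47 by limma (adjusted p = 0.229) and -1.71 by edgeR (adjusted p = 0.0565). Tpi1 was at -0.78 ± 0.45, Pgk1 at -0.76 ± 0.46 and Pkm at -0.43 ± 0.46 by limma, with adjusted p of 0.573, 0.608 and 0.894. In pregnant 1 against non-pregnant cells 0 of 4 were called by limma (2.12%; 0 at an unadjusted p under 0.05) and 0 of 6 by edgeR (2.27%; 1 at an unadjusted p under 0.05). Pgk1 was at -0.80 ± 0.53 and Pkm at -0.31 ± 0.53, while Aldoa was at 0.055 ± 0.55 and Tpi1 at 0.073 ± 0.52 (limma adjusted p = 0.999 for each). Without pregnant 2 the median log2 difference of all genes was -0.030, 0.014 and -0.0035 over postpartum against pregnant, pregnant against non-pregnant and postpartum against non-pregnant cells. Both postpartum libraries lay below pregnant 1 and the non-pregnant library for all 4 enzymes tested and for all 6 listed, a pattern held by 25.4% of the 2449 genes by the mean over cells and 26.1% by pooled UMIs.

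**Figure D2:**
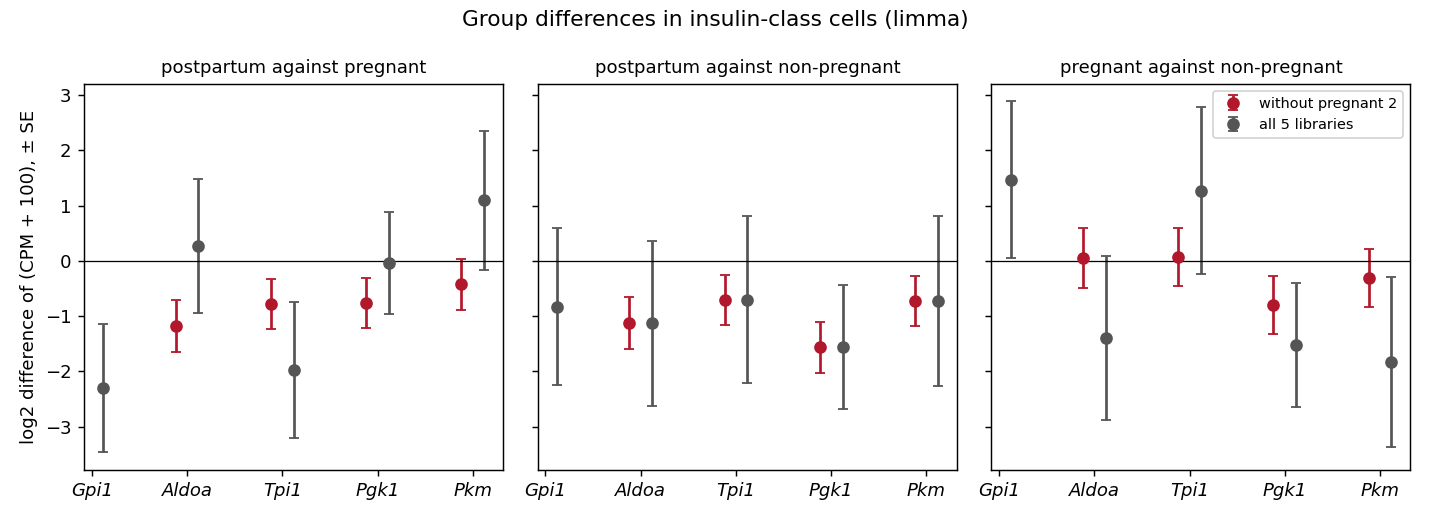
Log2 differences of the enzymes in insulin-class cells by limma, with standard errors, for each pair of states, with all 5 libraries and without pregnant 2. Without pregnant 2 the bars shorten and the 4 enzymes tested lie below 0 in both comparisons of postpartum cells, from -1.56 to -0.43, while pregnant against non-pregnant cells lie from -0.80 to 0.073.

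The sum of the 6 enzymes was also read in insulin-class cells split by their insulin content. Hormone transcripts took 57.9% and 61.8% of the UMIs in postpartum 1 and 2, against 42.2% for pregnant 1 and 32.7% for the non-pregnant library. The median cell had 215 and 517 UMIs in postpartum 1 and 2, against 481 for pregnant 1 and 2553 for the non-pregnant library. These UMIs were counted over all features given, 40930 in the non-pregnant library and 6695 in each of the others. The non-pregnant share and median are therefore not on a like footing with the rest. Non-hormone UMIs, the denominator of all levels, had a median per insulin-class cell of 88 and 179 in postpartum 1 and 2, against 242 for pregnant 1 and 1308 for the non-pregnant library. The parts of depth and of hormone content in the result were not tested. Insulin-class cells were split by the insulin share of their UMIs, again over all features given. Non-pregnant bins are therefore not of the same insulin content as those of the other libraries. In bins of at least 20 cells the 6 enzymes summed to 748 and 923 CPM in postpartum 1 and to 862, 956 and 977 CPM in postpartum 2, against 1832 to 2068 CPM in pregnant 1 and 2369 to 2708 CPM in the non-pregnant library. In each filled bin that a postpartum library shared with pregnant 1, its sum was below that of pregnant 1. The sums of postpartum 1 rest on 12 and 19 UMIs.

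**Figure D3:**
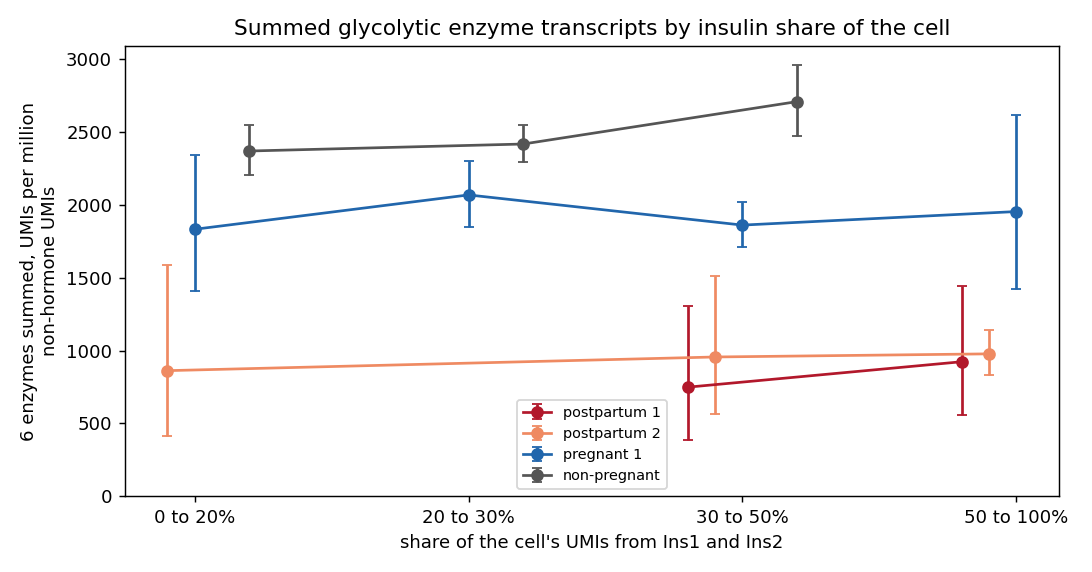
Summed level of the 6 enzymes in insulin-class cells, in UMIs per 1000000 non-hormone UMIs with exact 95% intervals, by the insulin share of the UMIs of a cell; bins with fewer than 20 cells and pregnant 2 are not drawn. The postpartum points lie at 748 to 977, below pregnant 1 at 1832 to 2068 and the non-pregnant library at 2369 to 2708. Insulin shares are over all features given, which differ between the non-pregnant library and the others.

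Markers of other cell types also differed in level between libraries. Summed over 13 measured markers, acinar (digestive enzyme) transcripts stood at 3228 and 2468 CPM in insulin-class cells of postpartum 1 and 2, at 11.5 in pregnant 1 and 10770 in pregnant 2, and at 758 in the non-pregnant library. All 13 were detected in postpartum 1, postpartum 2 and the non-pregnant library, 4 in pregnant 1 and 5 in pregnant 2. Macrophage markers (5 measured) stood at 666 and 1096 CPM in postpartum 1 and 2, 557 in pregnant 1, 0 for pregnant 2 and 332 in the non-pregnant library. Endothelial markers (7 measured) ranged from 540 to 881 CPM and mesenchymal markers (2 measured) from 411 to 847 CPM outside pregnant 2, where both were at 0. Alpha-cell markers (8 measured) stood at 13144 and 17211 CPM in postpartum 1 and 2, 11385 for pregnant 1, 7377 for pregnant 2 and 8118 in the non-pregnant library. Of the other lists, 3 were, like the enzymes, lower in both postpartum libraries than in pregnant 1 and the non-pregnant library. Ductal markers (4 measured, among them the keratins Krt8 and Krt18) stood at 692 and 1049 CPM in postpartum 1 and 2, 1575 for pregnant 1, 443 for pregnant 2 and 1653 in the non-pregnant library. Delta-cell markers beside the hormone (3 measured) stood at 102 and 260 CPM in postpartum 1 and 2, 645 for pregnant 1, 0 for pregnant 2 and 376 in the non-pregnant library, and gamma-cell markers (3 measured) at 205 and 322 CPM in postpartum 1 and 2, 348 for pregnant 1, 0 for pregnant 2 and 461 in the non-pregnant library. The part of these 3 lists in the result was not tested. Among cells with no UMI of the 27 acinar, macrophage, endothelial and mesenchymal markers, a selection chosen after the data were seen, the 6 enzymes summed to 908 (621 to 1282) and 960 (811 to 1129) CPM in postpartum 1 and 2, 1848 (1717 to 1987) in pregnant 1 and 2700 (2539 to 2868) in the non-pregnant library. Both postpartum intervals lay below those of pregnant 1 and the non-pregnant library among these cells. Of the insulin class, the selection kept 42.4% of non-pregnant cells, 82.1% of pregnant 1 cells, and 92.5% and 84.2% of cells of postpartum 1 and 2. A shallow cell can lack a UMI of these markers and still hold RNA of other cells. The selection therefore differs with depth, and the part of such RNA in the result was not tested.

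Glucagon-class cells, the alpha cells of the islet by their hormone, had lower postpartum sums too. Summed over the 6 enzymes, postpartum 1 had 398 CPM (5 UMIs) and postpartum 2 had 810 (39 UMIs), against 1850 (67 UMIs) in pregnant 1, 0 in pregnant 2 (23 cells) and 1612 (195 UMIs) in the non-pregnant library. The postpartum sums were 0.215 (0.0676 to 0.527) and 0.438 (0.287 to 0.659) times that of pregnant 1, and pregnant 1 was at 1.15 (0.856 to 1.52) times the non-pregnant library. Aldoa, for example, was at 79.5 CPM (1 UMI) in postpartum 1, 270 (13 UMIs) in postpartum 2, 635 (23 UMIs) in pregnant 1 and 430 (52 UMIs) in the non-pregnant library. Pkm was at 239 CPM (3 UMIs) in postpartum 1, 270 (13 UMIs) in postpartum 2, 745 (27 UMIs) in pregnant 1 and 669 (81 UMIs) in the non-pregnant library.

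No enzyme was called between states in the glucagon class. With all libraries limma called 0 of 3 in postpartum against pregnant (0.0536% of 1865 genes), 0 of 3 in pregnant against non-pregnant (0%) and 0 of 3 in postpartum against non-pregnant cells (0.0536%), with 0 at an unadjusted p under 0.05 and 0 of 5 by edgeR or DESeq2. Without pregnant 2 limma called 0 of 5 in the same comparisons (0.0431%, 0.0863% and 0.173% of 2318 genes), again with 0 at an unadjusted p under 0.05. In edgeR 0 of 5 passed (0.234%, 0.403% and 1.44% of 4709 genes), with 1 in postpartum against non-pregnant cells, Pgk1, at an unadjusted p under 0.05. With all libraries 1 of the 3 enzymes tested lay below 0 in postpartum against pregnant cells, with a median log2 difference of 0.069 (19.6% of all genes below 0, median 0.74). Without pregnant 2 all 5 lay below 0 (52.1% of all genes), from -1.40 ± 0.69 for Pgk1 to -0.23 ± 0.67 for Tpi1 (limma adjusted p = 0.622 and 0.934). Both postpartum libraries were below pregnant 1 and the non-pregnant library for 3 of these 5 by the mean over cells, against 24.9% of all genes, and for 4 of 5 by pooled UMIs, against 24%. Pgk1 and Tpi1 passed the filter here only through the non-pregnant library, where their means over cells were 259 and 212 CPM. These counts are therefore not independent of the filter. The difference of the state effects between glucagon and insulin classes was tested in 1 fit for 5 enzymes and 3 comparisons, and 0 of 15 were called by limma (0% of 2108 genes in each), with 0 at an unadjusted p under 0.05. Without pregnant 2 it was again 0 of 15, with 0.0835% of 2395 genes called in postpartum against pregnant, 0% in pregnant against non-pregnant and 0.0835% in postpartum against non-pregnant cells.

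Between classes, the summed level was lower outside the insulin class in the non-pregnant library, the deepest of the 5. In the non-pregnant library the glucagon, somatostatin and pancreatic polypeptide classes stood at 1612, 1450 and 1633 CPM, which is 0.658 (0.566 to 0.761), 0.592 (0.467 to 0.742) and 0.667 (0.526 to 0.834) times the insulin class. In pregnant 1 the glucagon class was at 0.960 (0.739 to 1.23) times the insulin class, in postpartum 2 at 0.857 (0.590 to 1.22) times and in postpartum 1 at 0.470 (0.143 to 1.21) times. These 3 intervals include 1, and all 3 overlap the interval of the non-pregnant ratio, 0.566 to 0.761. The somatostatin class of postpartum 2 went the other way, at 1886 CPM from 14 UMIs in 25 cells, 2.00 (1.07 to 3.43) times its insulin class. Pgk1 was the enzyme farthest below in the non-pregnant pancreatic polypeptide class, at 82.7 CPM (4 UMIs), 0.197 (0.0536 to 0.509) times its insulin class.

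**Figure D4:**
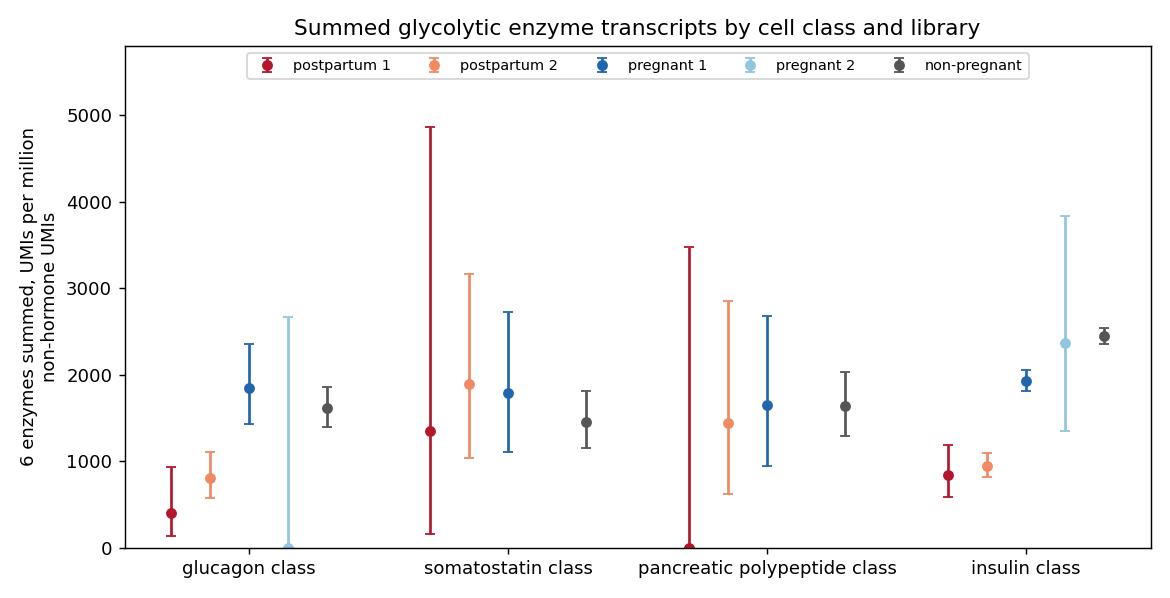
Summed level of the 6 enzymes in each hormone class and library with at least 10 cells, in UMIs per 1000000 non-hormone UMIs with exact 95% intervals. In the non-pregnant library the other 3 classes lie at 1450 to 1633, below the insulin class at 2449, while in pregnant 1 the classes lie between 1648 and 1926 with overlapping intervals.

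Over all libraries no enzyme was called between classes by limma on differences within libraries. The counts were 0 of 5 for the glucagon class (0.237% of 2108 genes), 0 of 5 for the somatostatin class (1.67% of 2522) and 0 of 4 for the pancreatic polypeptide class (1.16% of 2416), each against the insulin class, with 0 at an unadjusted p under 0.05. edgeR and DESeq2 called 0 of 6 in each, with up to 2 at an unadjusted p under 0.05. Without pregnant 2, 289 of 2395 genes (12.1%) were called between the glucagon and insulin classes and 0 of 5 enzymes. In that fit Pkm stood at -0.43 ± 0.23 (adjusted p = 0.239). Gcg, which beta cells should lack, stood at 5901 to 33737 CPM in the insulin class of the 5 libraries, and the part of RNA from other cells in the class values was not tested.

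Genes next to these steps in the pathway did not follow one direction. The lists here were chosen with earlier results of these data known, and no gene of them was called between states with all libraries. For glucose entry and phosphate cycling, 2 of 10 listed genes were measured, and both were higher in each postpartum library than in pregnant 1 and the non-pregnant one, an order that 16.6% of 6536 genes had. G6pc2, the islet glucose-6-phosphatase, was at 3049 and 2660 CPM in insulin-class cells of postpartum 1 and 2, 2201 and 2951 in pregnant 1 and 2 and 1847 in the non-pregnant library. Slc2a2, the glucose transporter, was at 410 and 327 CPM in postpartum 1 and 2, 242 in pregnant 1, 0 for pregnant 2 and 292 in the non-pregnant library. Both genes are among the 9 beta-cell markers measured, and the sum of that list went the same way. It stood at 13657 and 11512 CPM in postpartum 1 and 2, 8382 and 15639 in pregnant 1 and 2 and 5688 in the non-pregnant library. Whether the 2 genes differ from that list was not tested. G6pc2 was lower in the pancreatic polypeptide class (log2 difference -4.38, limma adjusted p = 1.47e-07) and in the somatostatin class (-4.27, adjusted p = 1.08e-09) than in the insulin class, and Slc2a2 in the pancreatic polypeptide class (-2.09, adjusted p = 0.0481); pregnant 2 had too few cells to enter either fit. In the glucagon class neither was called with all libraries, G6pc2 at -3.76 (limma adjusted p = 0.0511) and Slc2a2 at -1.51 (adjusted p = 0.272), and both were called lower without pregnant 2, at -3.32 (adjusted p = 9.02e-09) and -1.89 (adjusted p = 8.57e-05; 12.1% of 2395 genes called in either direction).

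At the phosphofructokinase step, 5 of 8 listed genes were measured. Its most abundant one, Pfkfb2, makes the fructose-2,6-bisphosphate that activates phosphofructokinase. Pfkfb2 was at 282 and 203 CPM in insulin-class cells of postpartum 1 and 2, 175 in pregnant 1, 0 for pregnant 2 and 58.5 in the non-pregnant library, so it was above the non-pregnant level where Pgk1 was below it. Without pregnant 2 it was called higher in postpartum against non-pregnant cells by edgeR (log2 difference 2.08, adjusted p = 0.00874) and not by limma (1.22 ± 0.45, adjusted p = 0.0901). For the use of pyruvate and lactate, 7 of 15 were measured, led by Pdhb, a subunit of pyruvate dehydrogenase, at 307 and 104 CPM in postpartum 1 and 2, 82.6 and 1033 in pregnant 1 and 2 and 148 in the non-pregnant library. Of the other paralogs and side enzymes of lower glycolysis 5 of 12 were measured, each with a mean under 100 CPM, the most abundant being Pgp (phosphoglycolate phosphatase).

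Of the shuttles that pass cytosolic NADH to mitochondria, 8 of 9 genes were measured. In insulin-class cells 4 of these 8 were lower in both postpartum libraries than in pregnant 1 and the non-pregnant library, against 31.2% of 6536 genes. Higher in both were 0, against 16.6%. Mdh1, the cytosolic malate dehydrogenase, was at 717 and 738 CPM in insulin-class cells of postpartum 1 and 2, 747 and 738 in pregnant 1 and 2 and 581 in the non-pregnant library, so its postpartum levels were not the lowest. In this list edgeR without pregnant 2 called 1 of 8 genes lower in postpartum against non-pregnant cells (2.39% of 6534 genes were called lower), Mdh2, the mitochondrial malate dehydrogenase (-2.30, adjusted p = 0.00486), named after its value was seen. Mdh2 was at 51.2 and 57.1 CPM in postpartum 1 and 2, 92.2 in pregnant 1, 0 for pregnant 2 and 305 in the non-pregnant library. In the glucagon class edgeR without pregnant 2 likewise called 1 of 6 lower (1.44% of 4709 genes called in either direction), again Mdh2, with 0 UMIs in postpartum 1 and 2, 3 for pregnant 1, 0 for pregnant 2 and 39 in the non-pregnant library (edgeR adjusted p = 0.0235). Of 18 other known targets of hypoxia-inducible factors 12 were measured. Vegfa, an angiogenic factor and the most abundant of them, was at 512 and 369 CPM in postpartum 1 and 2, 419 and 295 in pregnant 1 and 2 and 456 in the non-pregnant library, so the groups overlapped. In the same edgeR comparison 1 of the 12, Ier3, an early-response gene, was called higher (1.66, adjusted p = 0.0391; 3.08% of 6534 genes called higher), and also against pregnant cells (3.02, adjusted p = 0.000111; 1.25% called higher). It too was named after its value was seen, and its calls rest on postpartum 2, with 691 CPM (133 UMIs), against 51.2 CPM in postpartum 1, 59.5 for pregnant 1 and 157 in the non-pregnant library. Both postpartum libraries were below pregnant 1 and the non-pregnant library for 5 of the 12, against 31.2% of 6536 genes, and above them for 0, against 16.6%.

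**Figure D5:**
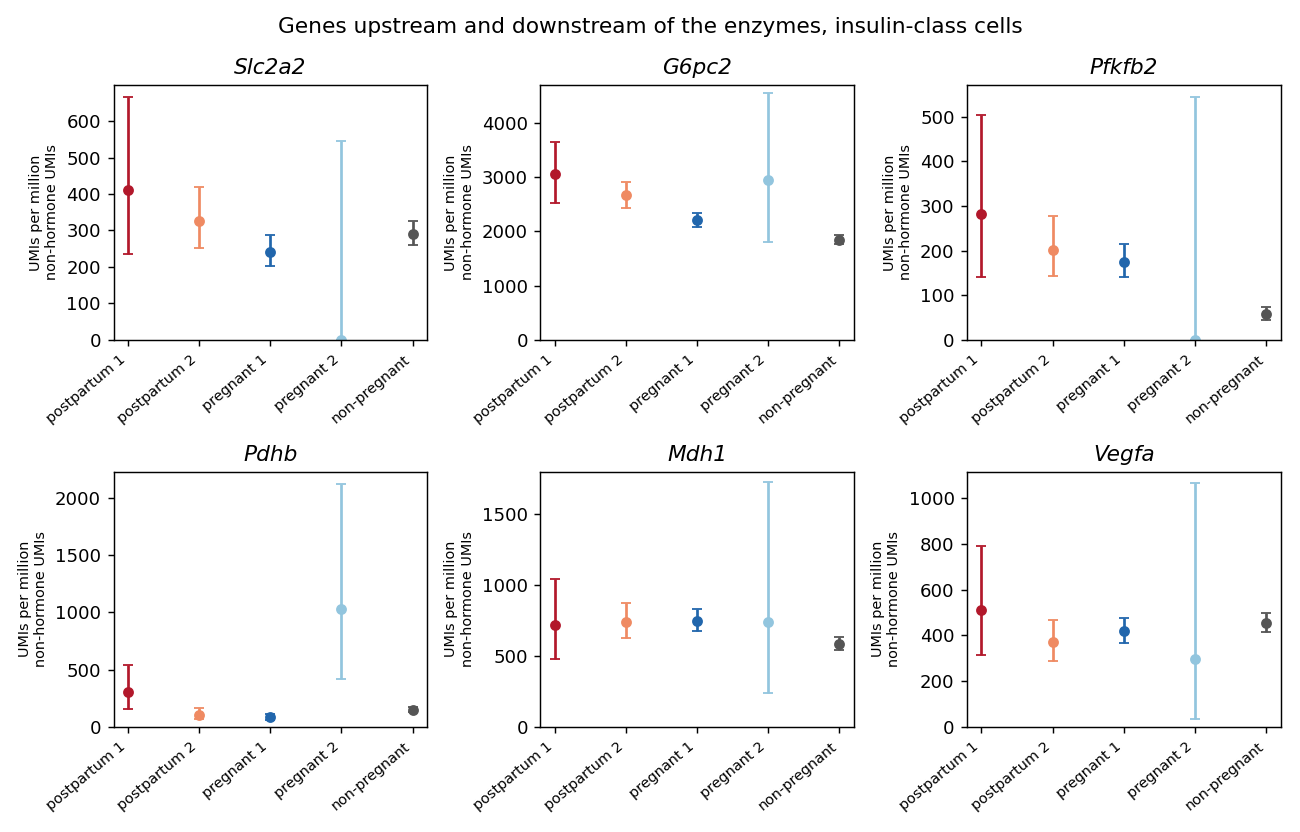
Levels of the most abundant gene of each neighbouring list, with Slc2a2, in insulin-class cells of each library, in UMIs per 1000000 non-hormone UMIs with exact 95% intervals. Mdh1 lies between 581 and 747 in all 5 libraries, and G6pc2 and Pfkfb2 are lowest among the 4 larger libraries in the non-pregnant one.

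The genes whose level went most closely with the summed enzymes were compared over the 18 combinations of library and class with at least 10 cells, among the 322 genes averaging 500 CPM or more. They were Pcsk1n, which encodes the secreted peptide precursor proSAAS (Pearson r = 0.88), Dst, a cytoskeletal linker (0.88), Ctnnb1, beta-catenin (0.86), Serbp1, an mRNA-binding protein (0.86), and Eif5a, a translation factor (0.85). Over the 16 combinations without pregnant 2 the values were 0.84, 0.79, 0.76, 0.78 and 0.74. Combinations of 1 library share its depth and free RNA, and the values describe these libraries only.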

How the data were processed

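Single-cell inDrop libraries of polyadenylated RNA were available for 5 samples. The submitters' processing notes name the builds GRCm38 and mm10, Partek 8.0 and Bowtie 1.1.1 without saying what each did; counter, annotation and filters: not given in the sources used here. In the deposited file of the non-pregnant library the authors scaled every cell to a total of 3023.99 over 40930 features, a linear signal. The other 4 deposited files give, for 6695 features, log2 of CPM plus 1 (CPM: counts per 1000000). Each cell was divided by its lowest value above 0, or in 9 cells of pregnant 2 by a whole fraction of it, to recover UMIs, and 100% of values lay within 0.1 of a whole number. Since the deposited values are normalized, limma (3.58.1, R 4.3.3) was the main test where counts had been foreseen, and edgeR 4.0.16 and DESeq2 1.42.0 on recovered UMIs were alternatives.

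Shared genes were matched by exact symbol (6543), leaving out Rn45s, Gm42418, duplicate symbols and symbols turned into dates. CPM was taken over non-hormone UMIs, leaving out 7 hormone genes. The limma fit used log2 of the mean CPM over cells plus 100 with a trended prior, genes averaging 100 CPM or more, libraries with at least 10 cells of the class, all groups in 1 fit, and Benjamini-Hochberg adjusted p under 0.05, two-sided. Class comparisons used differences within libraries, and the lone non-pregnant library was assumed to vary like the others. In the insulin class the prior had infinite weight with and without pregnant 2, so the trend over genes set the error. The fits were tested on simulated libraries of equal depth, set so that counting error played little part. That test does not cover the unequal and low depths of the real libraries. Scrublet (scanpy 1.11.5) called 10 of 4687 cells doublets, too few to show that it worked, and they were kept. Depth per library ranged from 14933 to 2561319 UMIs, and a count of 0 allows up to 3 counts of the total. Sequences came from RefSeq, and python 3.11.15, numpy 2.4.6, pandas 2.3.3, scipy 1.17.1 and matplotlib 3.10.9 were used.

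The enzymes, gene lists and tests were chosen with earlier results of these data known. All 7 enzymes are described; of other lists a gene is named if called with all libraries or most abundant in its list, with exceptions stated.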

Additional observations from a re-analysis of the deposited data

Results flagged for a closer look

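Gapdh was read in 1 library only and enters no comparison between states. In the non-pregnant library it had 134 UMIs over all cells, above the 3 counts that a 0 allows. The transcript end of Gapdh is shared by 4 other annotated genes, and its count is uncertain for that reason.

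Tpi1 was picked out by the order of library means alone: by the mean over cells both pregnant libraries lay above the non-pregnant one in the insulin class and below it in the glucagon class. The log2 difference between these effects, glucagon minus insulin class, was -2.40 ± 1.60 (SE, limma adjusted p = 1.00, not called), and without pregnant 2 it was -0.69 ± 0.94 (limma, not called). An opposite direction is not shown by these counts. In the insulin class pregnant 2 rests on 6 UMIs in 1 cell, and pregnant 1 was at 1.03 (0.819 to 1.28) times the non-pregnant library. In the glucagon class pregnant 2 had 0 UMIs in 23 cells, which allows up to 2172 CPM, and pregnant 1, with 4 UMIs, was at 0.607 (0.152 to 1.79) times the non-pregnant library.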

How the results depend on the processing

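Over 405 alternative values, 149 of 157 counts of called enzymes and 215 of 248 single values kept their direction and their side of the threshold. The counts that moved all turned on pregnant libraries. Leaving out each library in turn gave 0 to 4 called enzymes in postpartum against pregnant insulin-class cells, 0 to 5 in pregnant against non-pregnant and 0 to 1 in postpartum against non-pregnant cells; in the glucagon class 0 to 1, 0 to 1 and 0 to 0; between classes 0 to 0; and for the difference of effects between glucagon and insulin classes 0 to 4 of 15. The upper values came without pregnant 1, when pregnant 2 alone stood for pregnancy (83.4% of all genes were then called in postpartum against pregnant insulin-class cells), except the 1 of postpartum against non-pregnant cells, which came without pregnant 1 and also without pregnant 2. edgeR without pregnant 2 called 2 there. Directions that reversed were all in the insulin class. Aldoa in postpartum against pregnant cells (0.27 with all libraries) was -0.85 by DESeq2, -0.84 by edgeR, -1.71 by edgeR without pregnant 2, -1.48 in cells with at least 200 UMIs, -0.20 with hormones in the denominator and -0.061 with a pseudocount of 1000 CPM, and without single libraries it ran from -1.18 to 1.72. Pgk1 in that comparison (-0.035) was 0.042 with UMIs pooled over cells and 0.73 with a pseudocount of 10 CPM, and ran from -0.76 to 0.69 without single libraries. Pkm, above 0 with all libraries, was -0.45 with at least 200 UMIs and -0.44 by edgeR without pregnant 2, and ran from -0.43 to 2.62. In pregnant against non-pregnant cells Aldoa (-1.40) was 0.056 with at least 200 UMIs and 0.10 by edgeR without pregnant 2, and ran from -2.85 to 0.055, and Gpi1 (1.47) was -0.027 and -0.10 in those settings. The cause was not tested. Same-numbered libraries deviated together with a correlation of 0.0396 in the insulin class and -0.0406 in the glucagon class. Pregnant 2 enters both values with only 6778 and 1381 non-hormone UMIs in these classes. Its counting error could hide a pairing, so whether replicate numbers pair the samples cannot be told. With the replicate block 0 enzymes were called in postpartum against pregnant cells of either class. The sum of the 6 enzymes moved beyond its interval in 1 library, the non-pregnant one, in cells without other markers (2700 CPM). Cells with class hormones of at least 20% gave no value for the somatostatin class, comparisons with the non-pregnant state have none without that library, and pregnant 2 had too few cells for the somatostatin and pancreatic polypeptide fits. Depth limits the rest: postpartum 1 holds 33 UMIs and pregnant 2 holds 16 UMIs of the 6 enzymes in the insulin class.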
